A study of Mus musculus with 55 samples.

Results

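Transcripts of 5 genes that act on DNA double-strand breaks were followed through 5 stages of B cell development in mouse bone marrow. The genes are Xrcc5 and Prkdc of end joining, Atm and Trp53bp1 of break signalling, and Rad54l of homologous recombination. They were chosen by name, with earlier results of these data known. Every probe set that the array annotation assigns to one of these symbols was taken, whatever it read. This gave 6 probe sets of 13069 other than controls, for 5 of the 6137 genes that a single symbol names on the arrays. Prkdc had 2 probe sets and each other gene had 1.

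Total RNA was hybridised to 2 oligonucleotide array sets with different probe sets, here the first set and, after its titles, the b set. Atm (U43678_s_at), Trp53bp1 (AA068245_at) and one probe set of Prkdc (D87521_s_at) are on the first set. Rad54l (X97796_s_at), Xrcc5 (X66323_s_at) and the other probe set of Prkdc are on the b set. Of the 26 preparations, 6 held pre-BI cells, sorted as B220+ c-kit+ (sorts 1, 2, 3, 8, 9 and 10), and 5 held each other population. Large pre-BII cells (sorts 1, 2, 8, 9 and 10) and small pre-BII cells (sorts 1, 3, 8, 9 and 10) shared a gate of B220 and CD25 without surface immunoglobulin and were separated by size. Immature B cells (sorts 1, 2, 8, 9 and 11) were B220low and mature B cells (sorts 1, 3, 8, 9 and 11) B220high, both with surface IgM, except that 1 label of immature sort 1 gives no gate. No label gives a strain, age, genotype or treatment, or says whether preparations came from separate animals. The p-values therefore rest on how far these preparations spread, which can be technical in part or whole, and on few arrays. In sorted populations, fewer expressing cells and less RNA per cell cannot be told apart.

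B cell precursors cut their own antigen receptor genes with the RAG recombinase and reseal them by classical end joining. In that pathway the Ku heterodimer, of which Xrcc5 encodes the larger subunit, binds the broken ends and recruits the DNA-dependent protein kinase, whose catalytic subunit Prkdc encodes. The kinase encoded by Atm is activated at breaks and phosphorylates many proteins, among them the chromatin-bound factor encoded by Trp53bp1, which protects ends from resection. Homologous recombination copies a sister chromatid and so is used in the S and G2 phases of the cell cycle. Rad54l encodes a DNA translocase of this pathway. Pre-BI and large pre-BII cells include many dividing cells, while small pre-BII cells, which rearrange the light chain genes, are mostly resting, as are immature and mature B cells.

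Promoter sequence was read for the genes whose transcripts varied together and for the members that the sequence table held. The table is RefSeq's, on GRCm38.p6, and gives 250 bases before and 50 after an annotated start. It held Xrcc5, Atm, Trp53bp1 and Rad54l, the last with 2 starts that lie 1 base apart. Each window of 300 bases was searched on both strands for 3 words that E2F factors of the S phase programme can bind, with TTTCCCG as the first, TTTGGCG as the second and TTTCGCG as the third. The cell cycle homology region was searched as TTTGAA or, in its other form, as TTCGAA. The 4 sequences below run 5′ to 3′ on the gene's strand and end 30 bases after the start, and capitals mark an E2F word as it reads on that strand. Rad54l is shown because, among the members, its transcript varied most clearly. Rpa1 and Rpa3 are shown because they fell beside it and hold a word, and Trp53bp1 as the member that holds one.
Rad54l (chr4:116123661-116123940, minus strand): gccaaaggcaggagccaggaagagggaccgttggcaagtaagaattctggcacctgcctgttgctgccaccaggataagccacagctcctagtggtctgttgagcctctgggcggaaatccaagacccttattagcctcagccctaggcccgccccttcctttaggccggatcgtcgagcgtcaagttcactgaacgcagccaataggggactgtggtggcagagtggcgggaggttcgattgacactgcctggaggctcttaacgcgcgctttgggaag
Rpa1 (chr11:75348354-75348633, minus strand): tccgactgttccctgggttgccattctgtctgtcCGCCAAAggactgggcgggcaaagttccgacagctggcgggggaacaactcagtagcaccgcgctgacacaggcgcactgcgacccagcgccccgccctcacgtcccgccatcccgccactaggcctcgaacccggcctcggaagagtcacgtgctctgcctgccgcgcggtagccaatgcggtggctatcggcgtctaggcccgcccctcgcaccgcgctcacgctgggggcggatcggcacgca
Rpa3 (chr6:8259112-8259391, minus strand): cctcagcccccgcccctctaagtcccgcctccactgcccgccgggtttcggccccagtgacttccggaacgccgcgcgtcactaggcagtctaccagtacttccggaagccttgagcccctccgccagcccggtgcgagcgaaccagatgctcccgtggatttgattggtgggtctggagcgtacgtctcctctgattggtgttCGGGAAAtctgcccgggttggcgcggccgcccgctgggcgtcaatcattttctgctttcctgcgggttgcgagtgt
Trp53bp1 (chr2:121271378-121271657, minus strand): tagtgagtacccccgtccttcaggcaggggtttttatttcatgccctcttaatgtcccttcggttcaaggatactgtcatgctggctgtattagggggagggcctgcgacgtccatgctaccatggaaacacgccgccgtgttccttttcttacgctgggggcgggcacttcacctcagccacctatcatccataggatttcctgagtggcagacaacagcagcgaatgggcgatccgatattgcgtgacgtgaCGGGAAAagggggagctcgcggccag

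The promoter of Rad54l held none of these words in its window. Trp53bp1 held TTTCCCG on the opposite strand at bases 255 to 261 of the window, just after the start. Xrcc5 and Atm held none. Among genes of homologous recombination described below, Rpa1 held TTTGGCG at bases 35 to 41 and Rpa3 held TTTCCCG at bases 205 to 211, both on the opposite strand, while Brca1, Dna2 and Rpa2 held none. No promoter of these 9 genes held a cell cycle homology region word. Of all 32851 promoters in the table, 5.58% held an E2F word and 19.2% a cell cycle homology region word. Binding to these words was not tested, and the matches describe only the letters in the windows.

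Levels are quantile-normalised intensities. Some lie below 0, since the deposited intensities include negative values, and how those were computed is not given. A noise limit of 2 robust standard deviations of the negative values lay at 251 (first set) and 319 (b set), and 40% and 20.1% of all levels exceeded it. Folds compare population means of log2 values raised to this limit, and a fold is a bound, written "at least", if the dimmer population had no preparation above it. Differences on the log2 scale come from the limma fit, in which values under the 40th percentile of each set (87.6 and 6.89) were raised to it. The fit's adjusted p-values use the Benjamini-Hochberg method over all 10229 tested probe sets. Most B lineage genes on the arrays were measured throughout, while the genes of the sort markers c-kit and CD25 mostly were not. Ptprc, Cd79a, Cd79b and Ighm exceeded the limit in all 26 preparations, but Pax5 did so in 1 and Kit in 2 of the 6 pre-BI preparations. Il2ra, which encodes CD25, did so in 1 small pre-BII preparation and in no large pre-BII preparation. Summed levels of the granulocyte genes (8 of 8 on the arrays) ran from 2174 to 11629 in pre-BI cells, and in the later stages, in order, from 2267 to 5457, 2156 to 3764, 2940 to 4901 and 3507 to 6807. Those of the T and NK genes (5 of 7) ran from 1020 to 3071, 458 to 902, 185 to 900, 80.6 to 453 and 96.9 to 362 in that order. Those of the monocyte and macrophage genes (5 of 5) ran from 4702 to 9694, 2505 to 6292, 1845 to 2985, 2402 to 4869 and 3687 to 4919. Those of the erythroid genes (4 of 6) ran from 7127 to 15891, 9344 to 14093, 4687 to 12748, 10104 to 14616 and 10779 to 16348. Hba-a1 exceeded the limit in all 26 preparations, with population means of 8675 to 11208, and Car2 varied over the populations (F test in limma, adjusted p = 0.000237). Ngp and Lyz2 exceeded the noise limit in all 26 preparations, with means of 4187 and 5503 in pre-BI cells, S100a9 in 21, S100a8 in 18 and Gzma in 9, including all 6 of pre-BI cells (mean 1333). Ltf, Mpo, Cd3d, Cd3g, Csf1r and Adgre1 exceeded it in none, and the part of such cells in the contrasts between populations was not tested.

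Rad54l was high in the 2 populations with high proliferation genes and was not measurable in the others. Its level in large pre-BII cells was 843 in sort 1, 1366 in sort 2, 1570 in sort 8, 1035 in sort 9 and 351 in sort 10, a mean of 1033 ± 475 (SD, n = 5). All 5 preparations exceeded the noise limit. In pre-BI cells it ran from 203 (sort 10) over a median of 570 to 1132 (sort 8), a mean of 573 ± 343 (SD, n = 6), and 4 of 6 preparations exceeded the limit. The lowest large pre-BII preparation therefore lay inside the range of the pre-BI preparations, and sort 10 was the lowest of both populations.

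In small pre-BII cells Rad54l read 230, -145, -37.9, 15.2 and 186 in sorts 1, 3, 8, 9 and 10, a mean of 49.7 ± 156 (SD, n = 5). In immature B cells it read 71.2, 12.6, 36.3, -19.6 and 6.8 in sorts 1, 2, 8, 9 and 11, a mean of 21.5 ± 34.2 (SD, n = 5). In mature B cells it read 187, 27.4, 16.2, -9.6 and -51.2 in sorts 1, 3, 8, 9 and 11, a mean of 33.9 ± 90.7 (SD, n = 5). None of these 15 preparations exceeded the noise limit, and all 15 lay below every large pre-BII preparation.

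**Figure D1:**
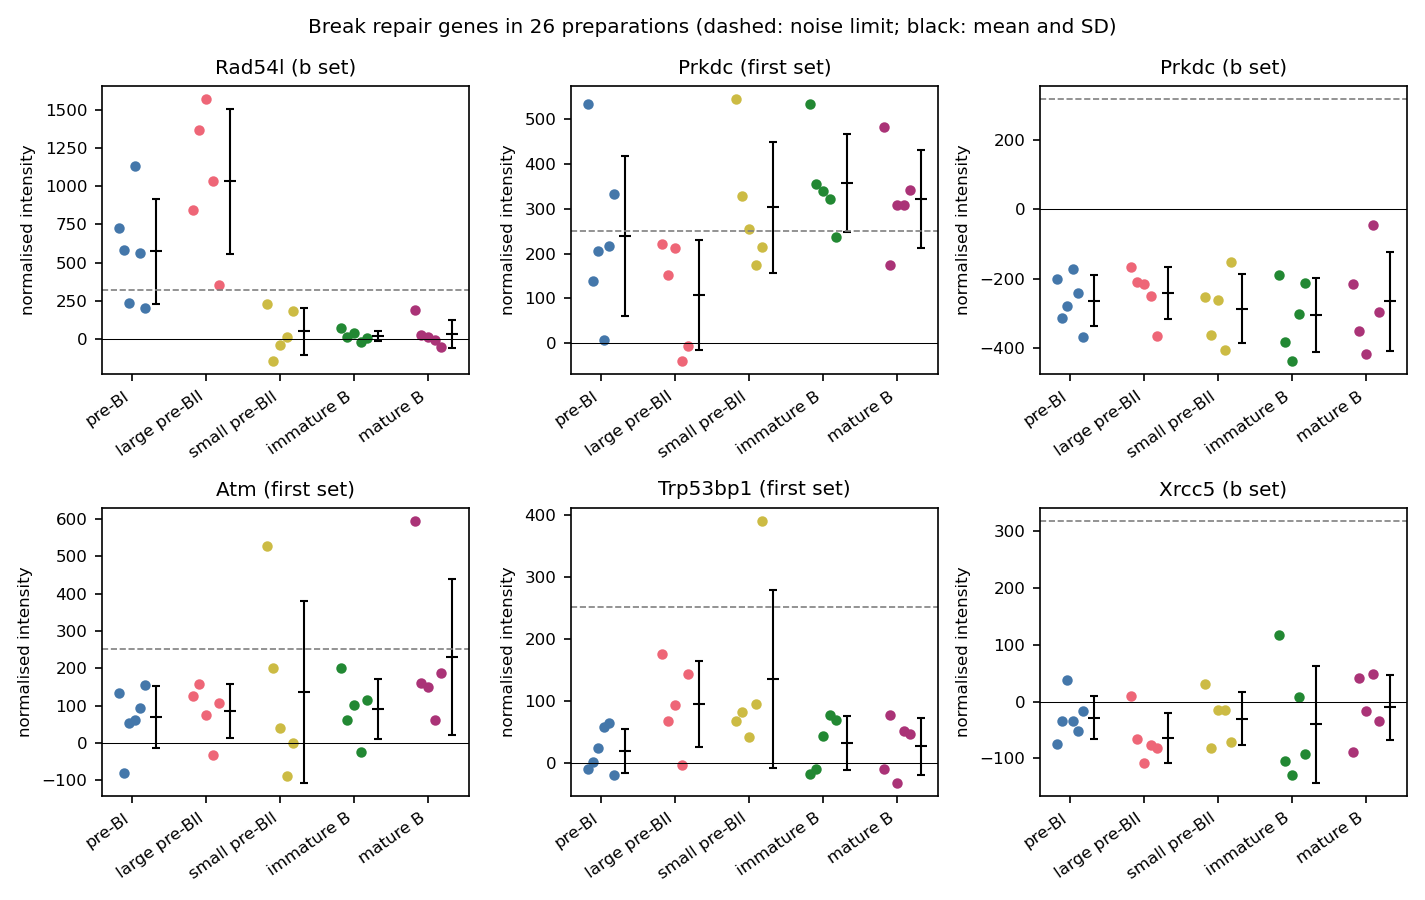
Normalised intensity (vertical axes, linear, each panel with its own scale) of the 6 probe sets in the 26 preparations, grouped by population. Each point is 1 preparation, in order of sort number, black marks give the mean and SD, and the dashed line is the noise limit of the array set. Rad54l stands above the limit in 9 preparations, all of pre-BI or large pre-BII cells, while Xrcc5 and the b-set probe set of Prkdc never reach it.

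Rad54l varied over the 5 populations (moderated F = 15.3, adjusted p = 1.69e-05 in limma), and it was the 1 member of 5 tested that did. Of all tested probe sets 14.8% varied. From large to small pre-BII cells Rad54l fell at least 2.89-fold, with a log2 difference of -4.87 (95% interval -6.92 to -2.82, adjusted p = 0.00157), where 5.3% of all probe sets changed and 3.27% were lower. It was also at least 2.89-fold lower in immature (log2 -5.73, adjusted p = 0.000124) and mature B cells (log2 -5.46, adjusted p = 0.000186) than in large pre-BII cells, comparisons in which 8.09% and 10.9% of probe sets changed. The preparations did not overlap in any of these 3 comparisons. All 3 had been called, and the share of all probe sets without overlap was not computed.

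Against pre-BI cells, Rad54l was at least 1.72-fold lower in small pre-BII (log2 -3.94, adjusted p = 0.00655), immature (log2 -4.81, adjusted p = 0.000647) and mature B cells (log2 -4.54, adjusted p = 0.00108). The small pre-BII preparation of sort 1 lay inside the pre-BI range, while immature and mature preparations all lay below it. In these comparisons 7.86%, 8.7% and 10.8% of probe sets changed. Large pre-BII cells did not pass against pre-BI cells, with a log2 difference of 0.93 and an interval of -1.04 to 2.89 (adjusted p = 0.914), where 1.87% of probe sets changed. Mature against small pre-BII cells gave an adjusted p of 0.889 where 4.59% of probe sets changed. By mean level the order was large pre-BII, pre-BI, small pre-BII, mature and immature B cells. The first 2 of these did not differ beyond their spread, and the last 3, all under the noise limit, have no order among themselves.

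The Rad54l calls were uneven over the sorts. Within sorts 8 to 11 alone, small against large pre-BII stayed called (log2 -4.95, adjusted p = 0.0302) and small pre-BII against pre-BI did not (log2 -4.23, adjusted p = 0.0505). Within sorts 1 to 3, with 2 or 3 preparations per population, no call was made, at a log2 difference of -4.75 and an adjusted p of 0.233 for small against large pre-BII. With the noise limit as the floor, the 3 calls against pre-BI cells ended, at a log2 difference of -0.78 and adjusted p-values of 0.0661, 0.0615 and 0.0534.

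The proliferation genes, 21 S phase and mitotic genes listed with earlier results of these data known, of which 18 were on the arrays, moved with Rad54l. Their summed level ran from 41388 to 53039 in pre-BI cells and was highest in large pre-BII cells, at 60882 to 69282. Small pre-BII cells had 7152 to 15475, immature B cells 6270 to 8172 and mature B cells 5292 to 6306. All 18 varied over the populations, against 14.8% of all probe sets, and 17 were lower in small than in large pre-BII cells, against 3.27%. Within a population the 2 measures did not keep the same order in every case. Sort 10 of the large pre-BII cells had the lowest Rad54l level, 351, beside a summed proliferation level inside the range of the other preparations. The part of dividing cells in the Rad54l differences was not tested.

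**Figure D2:**
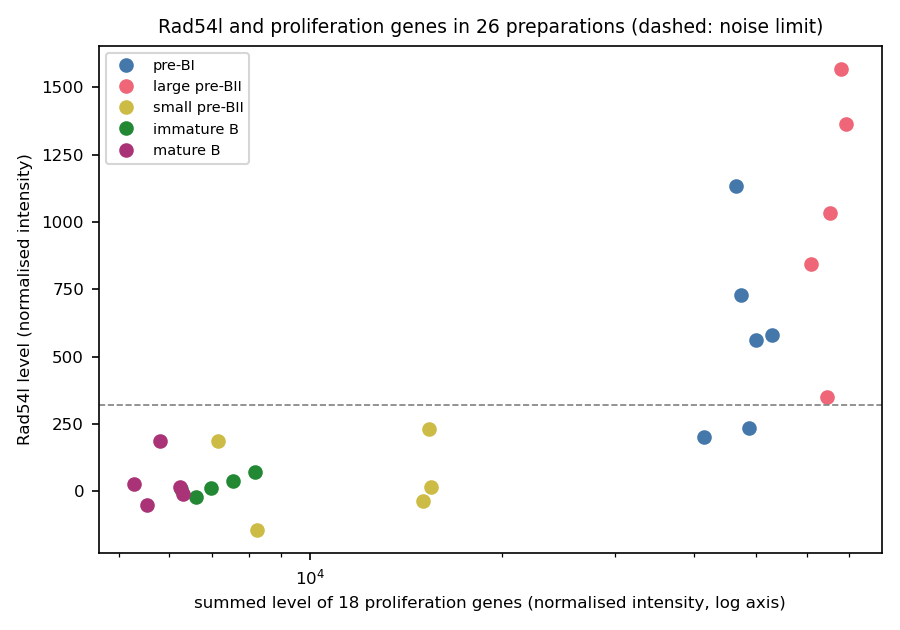
Rad54l level (vertical axis, normalised intensity, linear) against the summed level of 18 proliferation genes (horizontal axis, normalised intensity, log scale) in the 26 preparations, coloured by population. The dashed line is the noise limit of 319, and the 9 preparations above it all have a proliferation sum of at least 46442. Pre-BI sorts 3 and 10, with sums of 48774 and 41388, lie below it.

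The 5 genes most like Rad54l over the 26 preparations, among 1663 other probe sets of the b set with a single symbol, were Hmmr (r = 0.86), Actn4 (r = 0.85), Tuba1a (r = 0.84), Tubb5 (r = 0.84) and Ccna2 (r = 0.83). Hmmr encodes a spindle-associated hyaluronan receptor, Actn4 an actinin, Tuba1a and Tubb5 tubulins, and Ccna2 the cyclin of S and G2 phase. The correlations are of log2 levels and are a description. The points share the same arrays and 5 populations.

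Prkdc was measured near the noise limit on the first set and was lowest in large pre-BII cells. It read 221, 152, 213, -40 and -5.9 in large pre-BII sorts 1, 2, 8, 9 and 10, a mean of 108 ± 123 (SD, n = 5), with no preparation above the limit of 251. In pre-BI cells it ran from 7.6 over a median of 211 to 534, a mean of 239 ± 179 (SD, n = 6), with 2 of 6 above the limit. Large pre-BII preparations lay within the range of the pre-BI preparations or below it.

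In small pre-BII cells Prkdc read 545, 328, 256, 174 and 215 in sorts 1, 3, 8, 9 and 10, a mean of 304 ± 146 (SD, n = 5). In immature B cells it read 534, 357, 340, 322 and 238 in sorts 1, 2, 8, 9 and 11, a mean of 358 ± 109 (SD, n = 5). In mature B cells it read 482, 175, 308, 308 and 342 in sorts 1, 3, 8, 9 and 11, a mean of 323 ± 109 (SD, n = 5). The noise limit was exceeded by 3, 4 and 4 of these 5 preparations, and all 5 immature preparations lay above all large pre-BII ones. The share of all probe sets without overlap in that pair was not computed.

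No difference of Prkdc passed the threshold in limma. The F test gave an adjusted p of 0.213, and 3 of the 10 pairs of populations had an unadjusted p under 0.05. Immature against large pre-BII had the lowest p of these (log2 1.30, interval 0.39 to 2.21, adjusted p = 0.074), a pair in which 8.09% of probe sets changed. Small against large pre-BII differed by a log2 of 0.99 (interval 0.08 to 1.91, adjusted p = 0.268) and mature B against large pre-BII by 1.13 (interval 0.22 to 2.04, adjusted p = 0.117). By mean level the order was immature, mature, small pre-BII, pre-BI and large pre-BII cells, and no neighbours in it passed, with adjusted p-values of 0.99, 0.958, 0.727 and 0.795 in that order.

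Sort 1 held the highest Prkdc value of all 5 populations. An 18S ribosomal RNA control probe set for the 5′ end of the transcript read 2249 to 12252 on first-set arrays of sort 1, 156 to 18619 on all of sorts 1 to 3 and -224 to 68 on those of sorts 8 to 11. Its part in the Prkdc values was not tested. On b-set arrays, which carry Rad54l, the 18S control read 9521 to 16530 in sort 1, -39 to 16530 in sorts 1 to 3 and -39 to 263 in sorts 8 to 11. Sort 1 held the highest Rad54l value in 3 populations, those with no preparation above the noise limit. The part of the control in the Rad54l values was not tested either. Without sort 1, Prkdc in small against large pre-BII stood at a log2 of 0.92 (adjusted p = 0.311) and its F test at an adjusted p of 0.178.

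The second Prkdc probe set, on the b set, read below 0 in all 26 preparations, from -438 to -45.1, and was not tested. Its population means ran from -304 in immature B to -241 in large pre-BII cells. The 2 probe sets of this gene thus gave a level in 13 preparations and in none. The genes most like the first-set probe set among 4327 others were Pisd (r = 0.76), Coq10a (r = 0.71), Fth1 (r = 0.70), Evl (r = 0.69) and Neat1 (r = 0.68). Pisd and Coq10a encode mitochondrial proteins, Fth1 the ferritin heavy chain and Evl an actin regulator, and Neat1 is a nuclear noncoding RNA.

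Xrcc5 was not measurable on these arrays. It ran from -130 to 118 with a median of -34.5, no preparation exceeded the noise limit of 319, and 19 of 26 values were below 0. Its population means were -28.8 ± 37.9 in pre-BI (SD, n = 6), -64.1 ± 43.7 for large and -29.9 ± 46.4 for small pre-BII cells, -40.1 ± 103 in immature B cells and -10.2 ± 56.8 in mature B cells (SD, n = 5 each). These ranges overlapped throughout, so they have no order. The F test gave an adjusted p of 0.881 and no pair had an unadjusted p under 0.05. Its most alike genes of the b set, Mrpl42 (r = 0.70), Ptges (r = 0.66), Cenpx (r = 0.61), Syt8 (r = 0.61) and Csn3 (r = 0.61), did not vary over the populations either, with adjusted p-values of the F test of 0.395 or more.

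Atm exceeded the noise limit in 2 of 26 preparations, both of sort 1. In mature B cells it read 596, 159, 149, 62.5 and 187 in sorts 1, 3, 8, 9 and 11, a mean of 231 ± 209 (SD, n = 5). In small pre-BII cells it read 528, 200, 40.7, -88.4 and 0.2 in sorts 1, 3, 8, 9 and 10, a mean of 136 ± 243 (SD, n = 5). Sort 1 raised both means above the medians, which were 159 in mature B and 40.7 in small pre-BII cells. The medians of the other populations were 76.9 (pre-BI), 107 (large pre-BII) and 101 (immature B).

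The other populations averaged 69.0 ± 83.7 (pre-BI, SD, n = 6), 86.5 ± 72.5 (large pre-BII, SD, n = 5) and 90.8 ± 81.6 (immature B, SD, n = 5), with no preparation above the limit. By mean level the order was mature B, small pre-BII, immature B, large pre-BII and pre-BI cells, and no pair of populations passed. The F test gave an adjusted p of 0.573, and 0.72 without sort 1. Of the 10 pairs, mature B against pre-BI had an unadjusted p under 0.05 (log2 0.84, interval 0.00 to 1.69, adjusted p = 0.249). Without sort 1, mature against immature B moved from a log2 of 0.74 to 0.53. The first-set 18S control values of sort 1 given above apply here too, and their part in the Atm values was not tested. The genes most like Atm were Krtap6-3 (r = 0.78), Naalad2 (r = 0.77), Smim10l1 (r = 0.77), Nab2 (r = 0.74) and 6330403K07Rik (r = 0.73). Their adjusted p-values of the F test were at least 0.492, which is no separate result. They were picked to follow a profile that did not pass and lay mostly under the noise limit.

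Trp53bp1 exceeded the noise limit in 1 of 26 preparations. It read 68.0, 82.5, 42.6, 94.7 and 392 in small pre-BII sorts 1, 3, 8, 9 and 10, a mean of 136 ± 144 (SD, n = 5). In large pre-BII cells it read 177, 68.6, 94.4, -3.7 and 143 in sorts 1, 2, 8, 9 and 10, a mean of 95.9 ± 69.8 (SD, n = 5). These were the populations in which it exceeded the floor of 87.6, in 2 and 3 preparations, just the 5 preparations that the filter on dim probe sets asks for.

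Pre-BI cells averaged 19.8 ± 35.5 for Trp53bp1 (SD, n = 6), immature 32.9 ± 43.9 and mature B cells 27.3 ± 45.9 (SD, n = 5 each), all under the floor. The F test gave an adjusted p of 0.59, and no pair had an unadjusted p under 0.05. Small pre-BII against pre-BI had the lowest (log2 0.45, interval -0.08 to 0.99, adjusted p = 0.393). Lyrm2 (r = 0.76), Tm2d1 (r = 0.72), Mff (r = 0.71), Zfpm1 (r = 0.70) and Btd (r = 0.65) were the genes most like Trp53bp1. As Trp53bp1 exceeded the noise limit in 1 of 26 preparations, these correlations are mostly of levels under it.

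**Figure D3:**
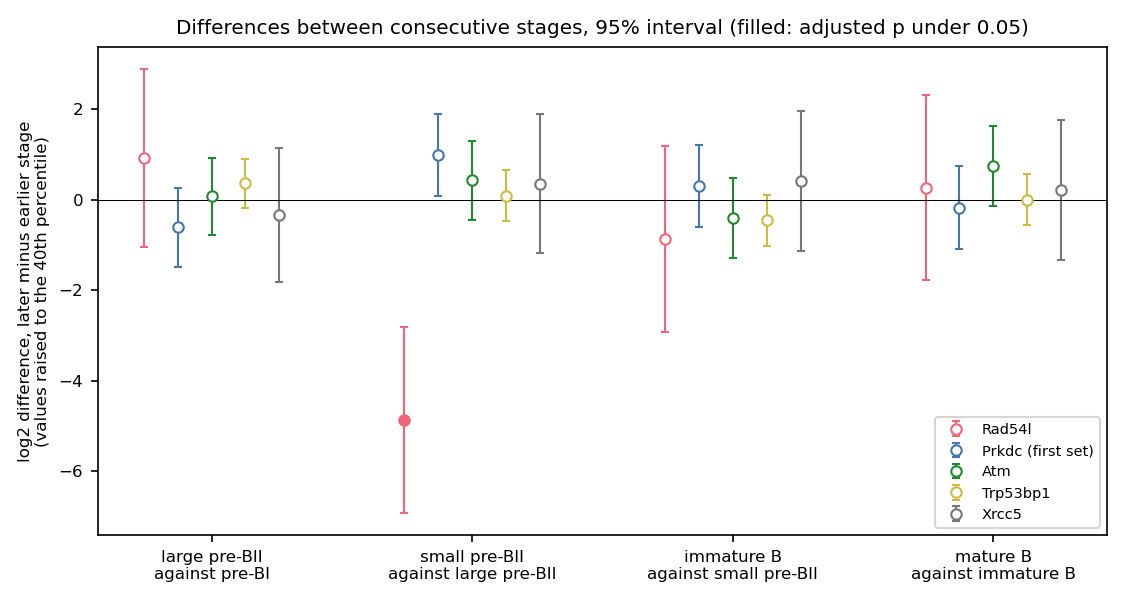
Log2 differences (vertical axis, values raised to the 40th percentile of the set) of the 5 tested probe sets between consecutive populations (horizontal axis), later minus earlier, with 95% intervals. Filled points have an adjusted p under 0.05. Rad54l from large to small pre-BII, at -4.87, is the only filled point of the 20.

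The genes were then set among 81 genes of 4 lists of break repair, made with earlier results of these data known. The arrays held 37 of them and 35 were tested, each by its brightest probe set, with levels of genes never compared with each other. Between small and large pre-BII cells 11 of the 35 passed, 10 lower and 1 higher, where 5.3% of all probe sets changed and 3.27% were lower, and 17 had an unadjusted p under 0.05. Between large pre-BII and pre-BI cells 3 passed, where 1.87% of probe sets changed, and between mature and immature B cells 1 did, where 1.35% of all probe sets changed. None of the 35 passed between immature B and small pre-BII cells, where 2.19% of probe sets changed and 6 of the 35 had an unadjusted p under 0.05 in limma.

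Of 31 genes of homologous recombination 14 were on the arrays and tested, and 6 of them were lower in small than in large pre-BII cells, against 3.27% of all probe sets. Their median log2 difference was -1.20, against 0.06 over all probe sets tested, and -0.08 for the same 14 with values raised to the noise limit. Rad54l was one of the 6. Dna2, a nuclease and helicase of end resection, fell at least 1.70-fold from a mean of 432 ± 70.7 (SD, n = 5) to 76.2 ± 33.7 (adjusted p = 3.98e-05). Rpa1 encodes the large subunit of the single-strand binding protein RPA, and fell at least 1.36-fold from 421 ± 196 to 1.1 ± 74.7 (adjusted p = 0.000633). Rpa2, the middle subunit, fell 2.65-fold from 948 ± 482 to 262 ± 182 (adjusted p = 0.00259). The RPA subunits serve DNA replication as well as repair.

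The other 2 genes are named because the count is small. Rpa3, the small RPA subunit, fell 2.96-fold from 1186 ± 486 to 397 ± 140 (SD, n = 5; adjusted p = 0.00616). Brca1, which encodes a ubiquitin ligase that favours end resection, fell at least 1.93-fold from 570 ± 448 to 52.8 ± 132 (adjusted p = 0.0108). The preparations of Brca1 and Rpa2 overlapped between the populations and those of the other 4 genes did not. All 6 had been called in this same comparison, and the share of all probe sets without overlap was not computed. Brca2, another gene of the list, had means of 146 and -19.9 (log2 -0.83, adjusted p = 0.296). The count of 6 was 3 within sorts 8 to 11, 0 within sorts 1 to 3 and 3 with the values as deposited. Brca1 also lost its call without large pre-BII sort 8 (adjusted p = 0.0557) or without sort 1 (adjusted p = 0.0524), Rpa1 with the noise limit as the floor (adjusted p = 0.141), and Brca1 and Dna2 with the 25th percentile as the floor (adjusted p = 0.107 for both). Over all populations 7 of the 14 varied, against 14.8% of all probe sets, the seventh being Sem1, which was 6555 ± 1846 in pre-BI (SD, n = 6) and 3452 ± 514 in mature B cells (SD, n = 5; log2 -0.89, adjusted p = 0.00618).

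Of 27 genes of break signalling 13 were on the arrays and 12 tested, among them Atm and Trp53bp1, and 2 were lower in small than in large pre-BII cells, against 3.27% of all probe sets. The median log2 difference of the list was -0.24, against 0.06 over all probe sets, or -0.07 with the noise limit as the lowest value. H2ax, the histone variant phosphorylated at breaks, rose 3.16-fold from pre-BI (4102 ± 1332, SD, n = 6) to large pre-BII cells (12368 ± 2089, SD, n = 5; adjusted p = 0.0201). It then fell 26.9-fold to 484 ± 187 in small pre-BII cells (log2 -4.75, adjusted p = 1.46e-09), and a second H2ax probe set gave a log2 of -2.83 (adjusted p = 6.95e-09). The rise of H2ax lost its call without large pre-BII sort 2, 8 or 9 or pre-BI sort 8, with adjusted p-values of up to 0.0619, and within sorts 1 to 3 (adjusted p = 0.924). It was also lost with the values as deposited (adjusted p = 0.391), with the 25th percentile as the floor (adjusted p = 0.0602) and without the filter on dim probe sets (adjusted p = 0.0641), while the second H2ax probe set passed (log2 1.23, adjusted p = 0.00507).

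Chek1, the checkpoint kinase of replication stress, fell at least 1.49-fold from 361 ± 207 to 74.9 ± 45.0 (SD, n = 5; adjusted p = 0.00919), while its second probe set did not pass (log2 -0.97, adjusted p = 0.0679). Gadd45a, a stress-induced gene, varied over the populations and was higher in small pre-BII cells (442 ± 166, SD, n = 5) than in pre-BI cells (93.8 ± 86.2, SD, n = 6; log2 1.82, adjusted p = 0.0159). Rad50, of the complex that senses ends, and Abl1 and Mdm2 exceeded the noise limit in all 26 preparations and did not pass over the populations, with adjusted p-values of the F test of 0.775, 0.133 and 0.612. Rif1 and Topbp1 exceeded it in none. The count of 2 lower genes was 1, H2ax, within either group of sorts and with the values as deposited.

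Of 16 genes of classical end joining 5 were on the arrays and 4 tested, including Xrcc5 and Prkdc, with a median log2 difference of 0.68 from large to small pre-BII cells and of 0.15 with values raised to the noise limit. Xrcc6, the smaller Ku subunit, ran from -225 to 198 and, like Xrcc5, exceeded the noise limit in no preparation. Polm, the polymerase that fills gaps at light chain joints, averaged 1183 ± 553 in pre-BI cells (SD, n = 6), 2902 ± 920 in large pre-BII cells and 8392 ± 2345 in small pre-BII cells, then 5645 ± 1436 in immature B cells and 1468 ± 465 in mature B cells (SD, n = 5 each). It rose 2.57-fold into large pre-BII (adjusted p = 0.00587), rose 2.91-fold into small pre-BII (adjusted p = 0.000779) and fell 3.93-fold from immature to mature B cells (adjusted p = 6.7e-05). Its preparations overlapped between pre-BI and large pre-BII only, among these 3 comparisons. All 3 had been called, and the share of all probe sets without overlap was not computed. With the values as deposited, none of the 3 calls of Polm was made (adjusted p = 0.41, 0.286 and 0.076), and within sorts 1 to 3 the first and the last were not (adjusted p = 0.589 and 0.0615).

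Dntt, the terminal transferase that adds nucleotides at heavy chain joints, fell 22.5-fold from 8026 ± 358 in pre-BI (SD, n = 6) to 288 ± 167 in large pre-BII cells (SD, n = 5; adjusted p = 0.000114), and a second probe set did not pass (log2 -2.64, adjusted p = 0.124). The end joining genes that varied were thus Polm and Dntt, which add nucleotides, while neither Ku subunit gave a level above the noise limit.

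Of 7 genes of alternative end joining 5 were tested and 2 were lower in small than in large pre-BII cells, against 3.27% of all probe sets. Their median log2 difference was -0.61, or -0.54 with the noise limit as the lowest value. Lig1, the replicative DNA ligase, fell 5.69-fold from 2424 ± 450 to 415 ± 357 (SD, n = 5; adjusted p = 2.38e-05). Fen1, the flap endonuclease of replication, fell at least 1.52-fold from 395 ± 166 to 49.1 ± 49.4 (SD, n = 5; adjusted p = 0.000341). Both serve DNA replication as well. Within sorts 1 to 3 Lig1 alone passed. Parp1, the break-sensing polymerase, exceeded the noise limit in all 26 preparations (504 to 2029) and did not vary over the populations by the F test (adjusted p = 0.789).

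Of the 4 cleavage genes of V(D)J recombination, 1 was higher and 2 were lower in small than in large pre-BII cells. Of all probe sets, 5.3% changed in this comparison and 3.27% were lower. Rag1, which encodes the catalytic subunit of the recombinase, rose 4.35-fold from 1207 ± 602 in large to 5182 ± 2160 in small pre-BII cells (SD, n = 5; adjusted p = 4.35e-05). Its cofactors Hmgb1 and Hmgb2, abundant chromatin proteins, fell 1.73-fold (adjusted p = 0.000973) and 10.6-fold (adjusted p = 0.0031). Hmgb1 lost this call within sorts 1 to 3 (adjusted p = 0.244) and Hmgb2 with the 25th percentile as the floor (adjusted p = 0.0834). From small pre-BII to immature B cells, where 2.19% of all probe sets changed, all 4 genes, with Rag2, were lower. The 35 repair genes gave no call there. Rag1 fell to a mean of 123 ± 36.2 (SD, n = 5; adjusted p = 1.71e-12) and Rag2 from 558 ± 172 to -127 ± 122 (SD, n = 5; adjusted p = 0.00243). Within each group of sorts the 4 calls were 2, of Rag1 and Hmgb2.

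**Figure D4:**
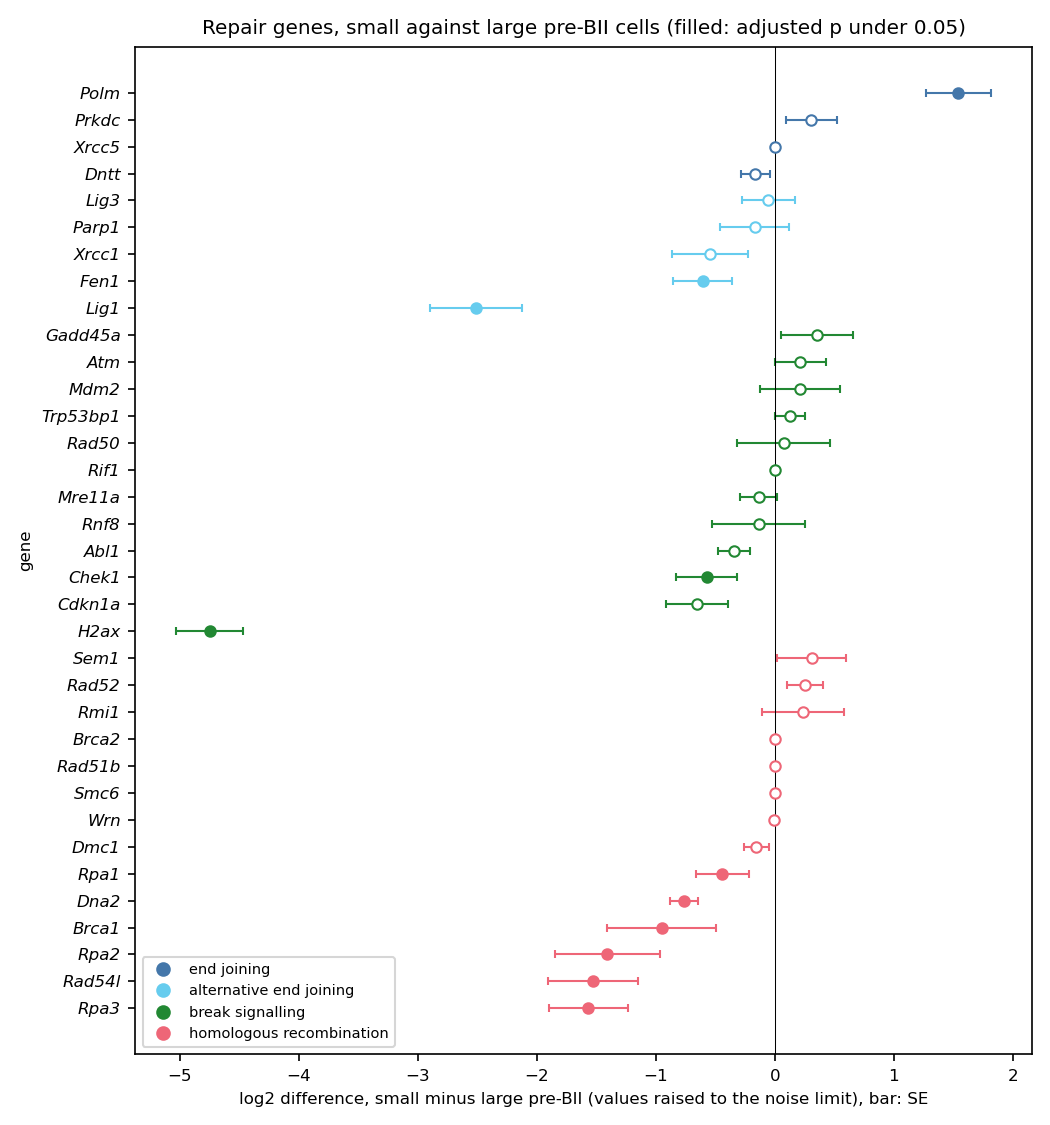
Log2 difference between small and large pre-BII cells (horizontal axis, with the noise limit as the lowest value, bars give the SE) of the 35 tested genes of 4 repair lists (vertical axis, coloured by list, sorted within a list). Filled points have an adjusted p under 0.05 in limma, 10 to the left of 0 and Polm to the right, while Prkdc, Atm, Trp53bp1 and Xrcc5 are open.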

How the data were processed

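RNA of 26 preparations was measured on 2 array sets, 55 arrays in all. The authors deposited 1 linear intensity per probe set and array, with negative values, and how it was computed is not given in the sources used. A first-set array titled as the second of mature B sort 1 equalled mature B sort 11 in all 6584 values and was counted once, as sort 11, and other second arrays were averaged, which left 54 arrays. Array brightness (trimmed mean) differed up to 5.63-fold (first set) and 4.2-fold (b set), so after removal of 110 controls each set was quantile-normalised. Values were raised to the 40th percentile and log2 taken, and probe sets above it in at least 5 preparations (5019 and 5210) were tested (limma 3.58.1 in R 4.3.3, with lmFit and trended eBayes, each set fitted alone). Benjamini-Hochberg adjustment ran over both sets within a comparison, at a threshold of 0.05. The procedure was tested on simulated data.

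The members and gene lists were chosen with earlier results of these data known. The brightest probe set stands for a list gene, a choice made across sets normalised separately. Named were the members, up to 4 passing genes of a list in a comparison, and the 5 most correlated genes. Symbols came from the array annotation, updated through RefSeq gene numbers.

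Sort numbers come from the labels, which do not say what equal numbers share. Deviations of same-numbered preparations correlated at 0.11 to 0.30 for large pre-BII and pre-BI (5 pairs). They correlated at 0.14 to 0.25 for immature and small pre-BII (3 pairs) and 0.12 to 0.21 for mature and immature cells (4 pairs). For small and large pre-BII they stood at 0.0032 to 0.24 (4 pairs, 1 over 0.1). The main fit paired no comparison, so its p-values treat preparations of equal sort number as independent. A block of sort number was run among the alternatives. The alternatives changed scaling, floor, filter, blocks, sorts and preparations, and leaving out sort 1 was chosen after seeing that Prkdc and Atm were high there.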

Additional observations from a re-analysis of the deposited data

Results flagged for a closer look

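The level of each member was examined in each population for a single preparation far from the rest, by the gap to its nearest neighbour as a share of the group's range. Of 30 groups examined 2 held such a preparation, and chance gives about 1 in 20. Atm in mature B sort 1 read 595.6, where the nearest other preparation read 187.4 and the lowest 62.5. Trp53bp1 in small pre-BII sort 10 read 391.6, where the nearest read 94.7 and the lowest 42.6. Atm did not pass the F test with or without sort 1 (adjusted p = 0.573 and 0.72 in limma). Trp53bp1 did not pass with all preparations (adjusted p = 0.59), and without small pre-BII sort 10 it fell under the filter on dim probe sets and was not tested.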

How the results depend on the processing

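Rad54l kept its direction in all 38 alternatives in its 6 called comparisons, while the uncalled differences of mature from immature B and from small pre-BII cells changed sign in 7 and 3 of them. Leaving out each preparation in turn kept every call: the adjusted p of its F test ran from 3.26e-06 to 8.13e-05, and the log2 difference from -5.59 to -4.32 for small against large pre-BII, -4.66 to -3.39 for small pre-BII, -5.32 to -4.47 for immature and -5.33 to -4.14 for mature B against pre-BI, and -6.24 to -5.40 for immature and -6.25 to -5.06 for mature B against large pre-BII. Calls of Rad54l were lost in 3 settings. With the floor at the noise limit, small pre-BII, immature and mature B against pre-BI each stood at -0.78 (adjusted p = 0.0661, 0.0615 and 0.0534). Within sorts 1 to 3, with 2 or 3 preparations per population, the F test gave an adjusted p of 0.169, small against large pre-BII -4.75, small pre-BII, immature and mature B against pre-BI -3.54, -3.95 and -2.70, and immature and mature B against large pre-BII -5.16 and -3.91. Within sorts 8 to 11, small pre-BII against pre-BI stood at -4.23 (adjusted p = 0.0505). No other member was called in any alternative that tested it. Trp53bp1 was tested in 28 of them, Xrcc5 in 34, Atm in 36 and Prkdc in 38.

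Counts of changed probe sets, in the order F test, large pre-BII against pre-BI, small against large pre-BII, immature B against small pre-BII, and mature against immature B, were 1509, 191, 542, 224 and 138. They were 744, 48, 227, 75 and 53 with the values as deposited, and 468, 19, 137, 43 and 20 within sorts 1 to 3. Within sorts 8 to 11 large pre-BII against pre-BI had 71, immature B against small pre-BII 144 and mature against immature B 72, and with the floor at the 60th percentile large pre-BII against pre-BI had 289. Leaving out each preparation gave 1377 to 1541, 143 to 212, 457 to 574, 188 to 229 and 105 to 149. A replicate block of sort number raised large pre-BII against pre-BI to 327, and the block changed no call of a member, Rad54l standing at -4.62 for small against large pre-BII (adjusted p = 0.00152). Fewer preparations within a group of sorts leave less power, and otherwise the cause of these changes was not tested. Xrcc5, the b-set Prkdc, Atm and Trp53bp1 lay under the noise limit in nearly all preparations, so little can be read from their lack of calls.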
